A study of Homo sapiens with 12 samples.

Results

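To describe which parts of the genome give peaks without a specific antibody, the 4 peak lists of the IgG control precipitations were merged into 696 regions, joining intervals that overlapped by at least 1 bp. Regions overlapped by peaks of at least 2 of the 4 lists were kept, which left 523 recurrent IgG regions, and the other 173 regions had a peak in 1 list. The recurrent regions were selected on the IgG peaks themselves, so that all IgG values below are a description. The 12 lists of the series held 267921 peaks.

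The cells were HAP1, an established near-haploid human line that derives from a chronic myeloid leukaemia. The genotypes were wild-type, ΔWAPL, in which the cohesin release factor WAPL was knocked out, ΔSCC4, which lacks SCC4, the product of MAU2 that loads cohesin onto DNA together with SCC2, and ΔWAPL/ΔSCC4, made by SCC4 knockout in the ΔWAPL line and called the double mutant below. All knockouts were made by CRISPR with a drug resistance cassette placed in the gene, a blasticidin cassette in WAPL and a puromycin cassette in MAU2. Chromatin of each genotype was precipitated with rabbit IgG, with an antibody against the cohesin subunit SMC1 and with an antibody against the DNA-binding protein CTCF. Each mutant was 1 line, and there was 1 library per genotype and antibody. With no replicates no test between genotypes was possible, and the 95% Wilson intervals below cover counting error only.

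IgG has no specific target on chromatin, so that a control library samples the fragments that stick to the beads or to the antibody in general. Such libraries are read as a map of the background of a ChIP-seq experiment. Regions that are present in more copies in the cells than in the reference collect the reads of all copies at the few places where the reference holds them. Satellite DNA around centromeres, ribosomal RNA gene arrays, mitochondrial DNA and recently duplicated genes are known to behave in this way in many cell types.

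Examples of the sequences among the recurrent regions are shown here as the plus strand of hg19. The first is a stretch of 171 bases, chr1:121484970-121485140, from a region found in all 4 IgG lists, and it stands for the largest group of regions, in which this period was the most frequent. Capitals mark a CENP-B box, the motif that the centromere protein CENP-B binds in alpha satellite DNA.
171-base repeat: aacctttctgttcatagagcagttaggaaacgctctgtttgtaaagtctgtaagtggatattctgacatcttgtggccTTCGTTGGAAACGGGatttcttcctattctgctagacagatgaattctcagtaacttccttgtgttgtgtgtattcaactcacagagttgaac
The second, chr10:42392649-42392738, is from the next largest group, in which the unit GGAAT recurs, and capitals mark its 5 exact copies here. None of them are adjacent in this stretch, and the region's best period was 26 bases.
GGAAT-rich stretch: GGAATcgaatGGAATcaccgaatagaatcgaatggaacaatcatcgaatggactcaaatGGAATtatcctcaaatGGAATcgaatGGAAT
The third, chr18:108333-108468, holds 2 units of a 68-base repeat, with the second unit in capitals. The units were identical at 63 of 68 bases (92.6%).
68-base repeat: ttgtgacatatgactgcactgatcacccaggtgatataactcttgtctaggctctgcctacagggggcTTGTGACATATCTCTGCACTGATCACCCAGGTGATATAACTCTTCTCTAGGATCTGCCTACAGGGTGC
The fourth, chr1:569885-569975, stands for only 3 of the 514 nuclear regions and is a nuclear copy of mitochondrial DNA in the pseudogene MTCO3P12. All 91 bases were identical to the mitochondrial reference, so that no base is in capitals.
Mitochondrial copy: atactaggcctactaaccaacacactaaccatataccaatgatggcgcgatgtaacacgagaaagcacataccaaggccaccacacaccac

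The recurrent regions were narrow. Their median width was 90 bp, the widest spanned 2089 bp, and together they covered 71.97 kb. Peaks were present in all 4 IgG lists at 331 regions, in 3 lists at 99 and in 2 lists at 93. The wild-type list held a peak at 502 of the 523, the ΔWAPL list at 490, the ΔSCC4 list at 365 and the double mutant list at 450. The ΔSCC4 IgG library was also the shallowest, with a genome-wide average of 5.43 reads per kb against 8.55 to 9.05 in the other 3. Of the regions, 77 lacked a peak in the ΔSCC4 list alone and 50 had one in wild-type and ΔWAPL cells alone. Depth and genotype cannot be told apart here.

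The height of each IgG peak was expressed as relative pileup, the number of reads stacked at the summit divided by the average pileup of the library. Over the recurrent regions its median was 70.1 in the wild-type list (13.6 to 233.8), 76.0 in the ΔWAPL list (14.5 to 220.9), 93.7 in the ΔSCC4 list (21.1 to 368.6) and 70.7 in double mutant cells (16.5 to 223.9). Regions in more lists were higher, with a median over the lists of 33.9 for 2 lists, 39.0 for 3 and 91.0 for 4, against 29.0 for regions in 1 list. At the 331 regions with a peak in every list, the ratio to wild-type had a median of 0.985 in ΔWAPL (0.650 to 1.57), 1.16 in ΔSCC4 (0.634 to 2.41, at the 330 where the pileup could be recovered) and 0.923 in double mutant cells (0.535 to 1.47). The ratio was at least 1.5-fold at 3, 29 and 0 of these regions, and at least 1.5-fold lower at 1, 2 and 13. Every region with a peak in all lists is recurrent by the rule, so that no wider set stands beside these counts. The ΔSCC4 library was the shallowest and reached the highest relative pileup, and the part of depth in its ratios was not tested.

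**Figure D1:**
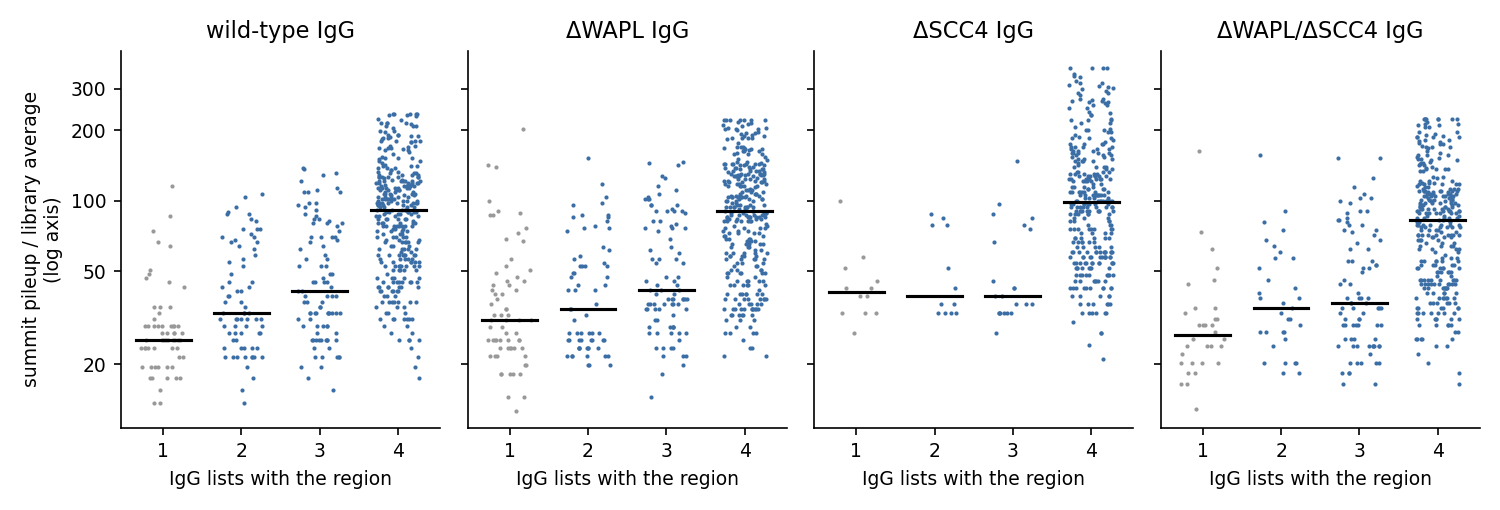
Relative IgG summit pileup (log axis) of each region with a peak in the named IgG list, by the number of IgG lists that held the region. Blue points are recurrent regions, grey points are regions in 1 list, and black lines are medians. In wild-type, ΔWAPL and double mutant cells the median increased from 1 to 4 lists, and in every genotype it was highest for regions in all 4.

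IgG summits did not exceed a fixed height. The shortest IgG interval, which the peak caller sets to its fragment length, was 60 bp in wild-type and 61 bp in the other genotypes, and the highest pileup was 120 reads in wild-type and 122 in the others, exactly 2 times that length. In the 4 lists 5, 7, 4 and 6 peaks stood at this height and 0 stood above it. It equals 1 read per position and strand over a fragment length. Values at that height may therefore be lower limits. The SMC1 and CTCF lists had fragment lengths of 163 to 227 bp, and 1 wild-type SMC1 peak reached 2 times that length.

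Regions in 2 lists had a median −log10 q of 12.2, taking the highest of their lists, and regions in 1 list of 8.70. The most significant on each side of the selection are given here. Of the regions in exactly 2 lists, the most significant lay at chr2:133021034-133021101, with −log10 q of 16.6 in wild-type and 26.3 in ΔWAPL cells, followed by chr4:49111925-49112094 with 25.0 and 7.75 in the same genotypes. Of the regions in 1 list, chr6:58776241-58776301 reached 26.4 and chr9:78790116-78790184, in a non-coding exon of PCSK5, reached 24.3, both in ΔWAPL cells.

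The recurrent regions lay close to the centromeres. A region was called pericentromeric when it was within 5 Mb of 1 of the 28 runs of at least 1 Mb of unknown bases in the reference, which are unassembled centromeres, heterochromatin blocks, acrocentric short arms and the end of the Y chromosome. Of the 523 recurrent regions 385 were pericentromeric (73.6%, 69.7 to 77.2), against 70.5% of the regions in 1 list (63.3 to 76.8), 6.61% of the merged SMC1 regions, 6.54% of the merged CTCF regions and 7.66% of the sequenced bases. A further 17 were subtelomeric, within 1 Mb of a chromosome's first or last sequenced base, 9 were mitochondrial and the rest lay elsewhere. The median distance of the 514 nuclear regions to such a gap was 0.383 Mb, and 184 of them (35.8%) were within 0.1 Mb, where 0.479% of the SMC1 regions and 0.406% of the CTCF regions were found. The median distance was 36.2 Mb for SMC1 and 36.5 Mb for CTCF regions.

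**Figure D2:**
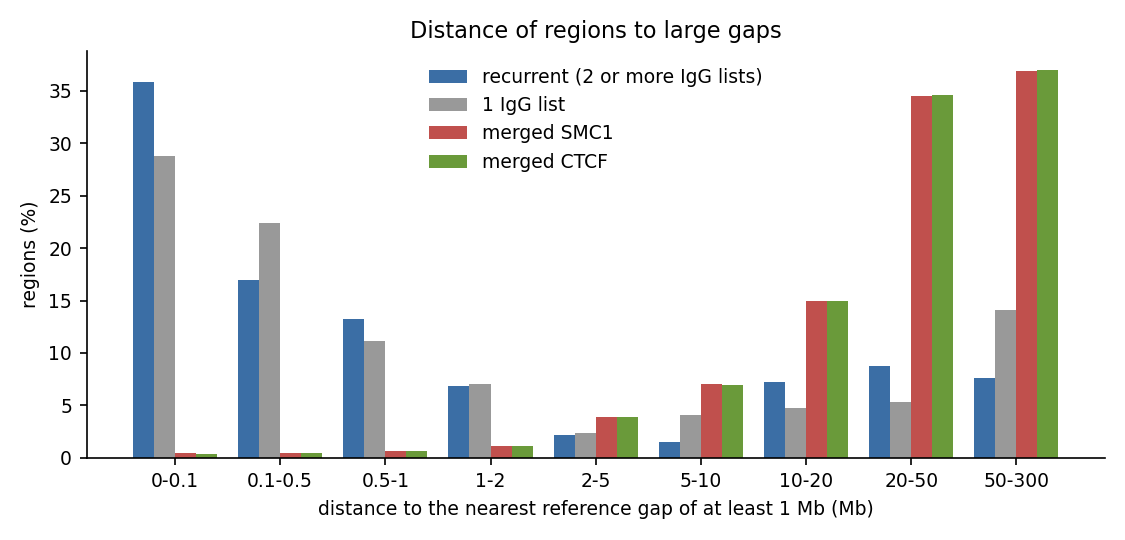
Share of regions (%) by distance to the nearest run of at least 1 Mb of unknown bases in the reference (Mb), for recurrent IgG regions, IgG regions in 1 list, and merged SMC1 and CTCF regions. Of the recurrent regions 35.8% were within 0.1 Mb, whereas 36.9% of the SMC1 regions and 36.96% of the CTCF regions were over 50 Mb away.

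Chromosomes contributed unequally. Chromosome 16 held 68 recurrent regions, with 2.76% of the sequenced bases, chromosome 2 held 65, the Y chromosome 63 (12.05%, with 0.804% of the bases), chromosome 10 held 58 and chromosome 4 held 36. Chromosome 15 held 0. The Y chromosome also held few merged SMC1 regions, 75, against 691 on chromosome 22 and 1519 on X. Positions on Y are those of the reference. Whether the reads came from a Y chromosome or from like sequence elsewhere was not tested. The regions came in clusters. When regions up to 50 kb apart were joined there were 158 clusters, and the 28 clusters of at least 5 regions held 326 regions (62.3%). The largest was chr16:46385913-46435552, with 33 regions in 49.6 kb, directly beside the unassembled block of chromosome 16. The next, chr2:132996599-133034777, held 27 regions far from the present centromere. Further clusters were chr10:42360721-42408349 with 26 regions, chr16:33950154-34022775 with 22 and chrY:13458393-13490091 with 22.

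The strongest pericentromeric regions stood at the ceiling of the pileup in every list. These were chr1:121484314-121485432, chr7:61968779-61969098, chr7:61969204-61969574 and chr10:42385064-42385282, each with 120 reads at the summit in wild-type and 122 in the other 3 libraries. The first is 1119 bp wide and among the 3 widest, with chr6:58777580-58779300 (1721 bp) and chr21:9825470-9827558 (2089 bp). The chromosome 21 region overlaps the microRNA genes MIR3648 and MIR3687, which are known to lie in a ribosomal DNA copy. Its relative pileup was 128.6, 143.0, 142.0 and 108.3 in wild-type, ΔWAPL, ΔSCC4 and double mutant cells.

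The repeats were seen in the sequence itself. A region was called a tandem repeat when the 1000 bp around it were identical to themselves at 50% or more of their bases after a shift of 2 to 400 bases. This held for 327 recurrent regions (62.5%, 58.3 to 66.6), for 76.9% of the pericentromeric ones, for 58.4% of the regions in 1 list (50.9 to 65.5), and for 0.976% of the SMC1 and 0.855% of the CTCF regions. The commonest period was 171 bases, in 71 regions, followed by 5 bases in 63, 49 in 33, 340 in 26, 15 in 19 and 26 in 18. The monomer of alpha satellite, the main DNA of human centromeres, is 171 bases long.

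Of the motifs searched, 3 copies in tandem of GGAAT, the unit of the classical satellites, were found on either strand in the 401 bp around the middle of 98 regions (18.7%, 15.6 to 22.3) and in 0.0289% of the windows of that length across the genome. The CENP-B box was found in 57 (10.9%, 8.51 to 13.9) and in 0.0254% of the windows. The telomere repeat TTAGGG in 3 tandem copies was found in 0 of 523, where a count of 0 allows a share of up to 0.574% (taken as 3 counts of 523). It was found in 0.00230% of the genome windows, far below that limit, so that its share at recurrent regions could not be compared with the genome.

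Grouping the regions by alignment to each other, at 80% identity over at least 100 bp, put 386 of the 523 (73.8%) into 20 families and left 137 alone. The largest family held 155 regions on 20 chromosomes, led by chromosomes 2, 10 and 16. It held all 57 regions with a CENP-B box, and 114 of its regions were in all 4 IgG lists. The next held 146 regions on 12 chromosomes, mostly chromosomes 16, 10, 4 and Y, and all 98 regions with the GGAAT repeat. Their median relative pileups were 70.1 and 61.8. Another family of 31 regions lay on the Y chromosome (24), chromosome 18 (5) and chromosome 10 (2). It includes the strongest subtelomeric regions, chr18:108110-108489, chr18:108848-108958 and chr18:109153-109358, the last in an exon of the pseudogene ROCK1P1. Their relative pileups in wild-type cells were 229.9, 190.9 and 208.5. In ΔSCC4 cells they were 323.3, 247.8 and 271.9. The ceiling described above was a relative pileup of 233.8 in the wild-type list and 368.6 in the ΔSCC4 list. Its part in this difference was not tested. The last 2 of these chromosome 18 regions share the same SMC1 and CTCF peaks.

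Exact copies were few despite these repeats. Every word of 65 bases, the length of a read, was counted in the reference on both strands, and the median over the words of a region was at least 2 copies at 3 of 523 recurrent regions (0.574%, 0.195 to 1.67) and at 0 of the 385 pericentromeric ones. Across the genome, 5.37% of the words taken at every 10 kb had at least 2 copies, and 16.8% of those in pericentromeres. The share was 0.289% for SMC1 and 0.463% for CTCF regions, so that all 3 kinds of peak lay below the genome with words of this length. With words of 36 bases the share rose to 22.4% (19.01 to 26.1) at recurrent regions, against 1.24% at SMC1 and 1.65% at CTCF regions. With these shorter words the recurrent regions lay above the genome (12.3%) and below the pericentromeres (26.2%), so that the order against the genome turned with the word length. Most recurrent regions thus lay in tandem repeats, while most of their 65-base words occurred once in the reference. Of the 523 regions 35 (6.69%, 4.85 to 9.16) matched at least 1 of the 59 unplaced scaffolds at 95% identity or more over at least 200 bp. In the lists 0 peaks lay on a scaffold. Whether scaffolds were mapped to or left out of the lists was not given in the sources used here, so that this count may have been fixed.

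Few recurrent regions were in genes. By the GENCODE annotation 414 of 523 (79.2%) were intergenic, 66 were in introns, 30 in non-coding exons, 11 in coding exons and 2 in untranslated regions. Within 1 kb of a start site lay 12.4% (9.87 to 15.5), against 32.8% of the SMC1 regions and 19.6% of the CTCF regions. Outside the pericentromeres and the mitochondrial genome, 50 of 129 were intergenic and 27.1% (20.2 to 35.4) lay within 1 kb of a start site. WAPL and MAU2, the edited genes, held 0 IgG peaks of any genotype.

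Of the gene families examined, mitochondrial genes held the most regions (9), followed by ribosomal RNA genes and pseudogenes (8) and the ankyrin repeat families of primates (7, in ANKRD30BL and ANKRD20A7P). The ribosomal regions lay in MT-RNR1, MT-RNR2, RNA5-8SP2 and RNA5-8SP6, so that some are counted in both of the first families. RNA5-8SP6 on the Y chromosome, at chrY:10037736-10037911, had relative IgG pileups of 103.3, 117.7, 99.7 and 80.8 in wild-type, ΔWAPL, ΔSCC4 and double mutant cells. DUX4-like genes and their neighbour FRG1-DT held 4 regions. Replication-dependent histone genes, zinc-finger genes and protocadherins, which are also multigene families, held 0. Families were matched by gene name, and ZFR, which the zinc-finger pattern did not match, held 1 region. The share of the genome in each family was not computed, so that these counts cannot be read as high or low.

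On the mitochondrial genome the strongest regions among those in all 4 lists were in the control region and beside it, at positions 24 to 631 and 15544 to 16537, the latter over MT-CYB, MT-TT and MT-TP, and in the large ribosomal RNA gene MT-RNR2, at positions 1701 to 1893 and 1997 to 2433. Which mitochondrial reference the reads were mapped to was not given in the sources used here, so that these positions may be shifted by a few bases. A region in 2 lists, in MT-CYB at positions 15048 to 15152, had a median relative pileup of 154.0, against 153.0 and 147.6 for the MT-RNR2 regions. The relative pileup at the end of the genome was 185.1, 188.3, 256.8 and 187.2 in wild-type, ΔWAPL, ΔSCC4 and double mutant cells. The ΔSCC4 value lay above the ceiling of the wild-type list, 233.8. Of the 514 nuclear regions, 3 matched mitochondrial DNA at 90% identity or more over at least 60 bp. One was MTCO3P12, shown above, where the summit pileup was 40, 47, 20 and 51 reads.

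CDC27, chosen after its values were seen, held the most recurrent regions of any protein-coding gene, mostly in its exons. It encodes a subunit of the anaphase-promoting complex, and 10 recurrent regions lay in it, 8 of them in exons, while exons make up 9.51% of the bases of the gene. MUC3A, also protein-coding, held 2 regions, each in an exon, while exons make up 8.65% of its bases. The region of CDC27 exon 7, chr17:45234307-45234411, lay wholly in the exon, and its relative pileup was 101.3, 99.6, 93.7 and 93.6 in wild-type, ΔWAPL, ΔSCC4 and double mutant cells. The region of CDC27 exon 9, chr17:45229221-45229284, was the weakest in this gene, with 31.2, 27.2 and 25.7 in wild-type, ΔWAPL and double mutant cells. It had no peak in the ΔSCC4 list. Copies of CDC27 on other chromosomes were also among the regions. The pseudogenes CDC27P1, at chr2:133020094-133020194 in the cluster far from the present centromere of chromosome 2, and CDC27P2, at chrY:10029511-10029699, matched the CDC27 transcript at 97.5% and 96.0% over 200 bases.

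SOX2 and MYC, genes of transcription factors, held coding-exon regions too and were also chosen after seeing their values. The single exon of SOX2 held chr3:181430167-181430283, in 2 lists, and chr3:181430368-181430613, in 3. Their relative pileups were 20.2 to 31.2 where a peak was called, and the ΔSCC4 list had none. A coding exon of MYC held 1 region in 2 lists, with 23.5 in ΔWAPL and 20.2 in double mutant cells. The wild-type list also had 1 IgG peak in a MYC exon, outside that region, with 23.4. In MYC the ΔWAPL and double mutant lists held 2 IgG peaks each and the ΔSCC4 list 0. KLF4 and POU5F1 held 0 IgG peaks.

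SMC1 and CTCF peaks were found at most recurrent regions. The SMC1 and CTCF lists had no part in the selection. An SMC1 peak of any genotype overlapped 454 of 523 regions (86.8%, 83.6 to 89.4) and a CTCF peak overlapped 476 (91.0%, 88.3 to 93.2), while 443 had both (84.7%) and 36 had neither (6.88%). The peaks of 1 SMC1 list covered 0.135% to 0.460% of the sequenced bases, and those of 1 CTCF list 0.446% to 0.586%. By genotype, SMC1 peaks overlapped 415 regions in wild-type cells (79.3%, 75.7 to 82.6), 390 with ΔWAPL (74.6%, 70.7 to 78.1), 405 with ΔSCC4 (77.4%, 73.7 to 80.8) and 379 in double mutant cells (72.5%, 68.5 to 76.1). These intervals overlapped, while the ΔWAPL list held 33952 SMC1 peaks and the ΔSCC4 list 12779. These are counts of the deposited lists, and the study reports other numbers of SMC1 peaks for these genotypes. All these shares were taken on the same regions, many of them in clusters, so that this overlap cannot show whether the genotypes differed. CTCF peaks overlapped 417, 425, 431 and 416 regions in the same order.

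The overlap depended on how often IgG gave a peak. In wild-type cells, an SMC1 peak was found at 31.2% of the regions in 1 IgG list (24.8 to 38.5), 46.2% of those in 2 (36.5 to 56.3), 72.7% of those in 3 (63.2 to 80.5) and 90.6% of those in all 4 (87.0 to 93.3). For CTCF the shares were 24.9%, 52.7%, 65.7% and 91.5%. By place the shares for SMC1 of any genotype were 86.0% for pericentromeric (82.1 to 89.1) and 90.2% for other regions (83.3 to 94.4), and the intervals overlapped.

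**Figure D3:**
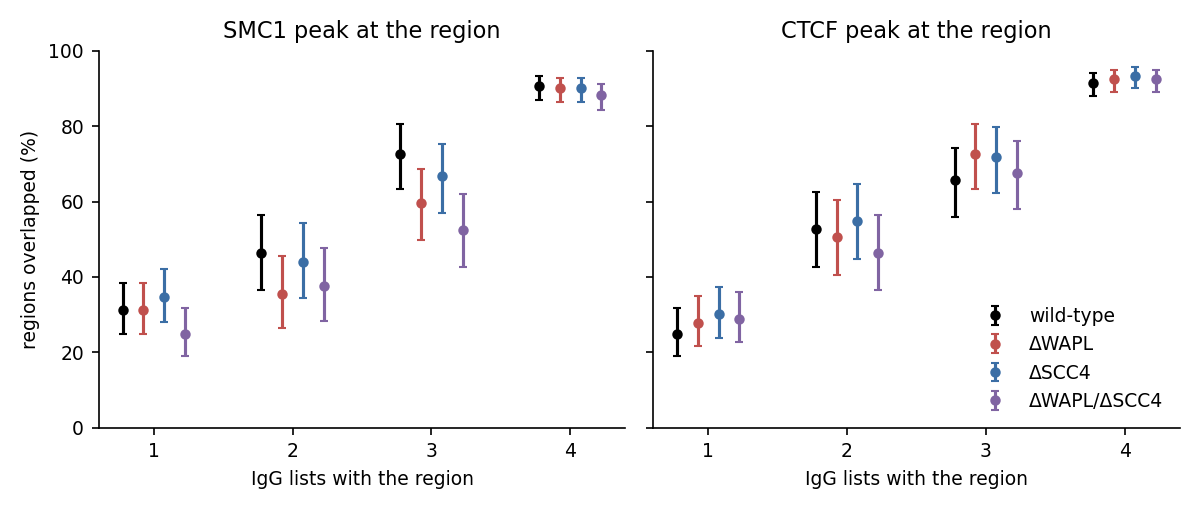
Share of IgG regions (%) overlapped by an SMC1 peak (left) or a CTCF peak (right) of each genotype, by the number of IgG lists that held the region. Points are shares of 173, 93, 99 and 331 regions and bars are 95% Wilson intervals of counting error. The wild-type SMC1 share was 31.2% at regions in 1 list and 90.6% at regions in 4.

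Seen from the SMC1 and CTCF lists these regions were a small part. Recurrent IgG regions held 353 of the 18542 wild-type SMC1 peaks (1.90%), 0.963% in ΔWAPL, 2.69% in ΔSCC4 and 1.16% in double mutant cells. They held 0.855%, 0.825%, 1.00% and 0.767% of the CTCF peaks. Among the 100 SMC1 peaks of highest −log10 q their part was larger, 51 for wild-type, 20 for ΔWAPL, 57 for ΔSCC4 and 27 for double mutant cells, while among the 100 strongest CTCF peaks it was 3 in each list. On the Y chromosome 45 of the 75 merged SMC1 regions and 51 of the 88 merged CTCF regions touched a recurrent IgG region, and counting every IgG region 56 and 63 did.

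The fold enrichment, which the authors deposited as the ratio of the summit pileup to the local background, was alike for both antibodies at these places and differed at their other peaks. At recurrent regions its median was 6.28 in wild-type for SMC1, against 6.25 for the other SMC1 peaks. For CTCF it was 6.24 against 12.2. The local background at recurrent regions was 3.395 times the library average for SMC1 and 3.54 times for CTCF, against 1.46 and 1.88 for the other peaks. Where IgG and SMC1 both had a wild-type peak (403 regions), the median relative pileup was 77.9 in IgG and 36.8 in SMC1, and SMC1 was the higher of the 2 at 29 regions. For CTCF, at 405 regions, it was 77.9 against 36.9, with CTCF higher at 36. The regions were selected on their IgG peaks and not on SMC1 or CTCF peaks. IgG may therefore be the higher by selection, and no conclusion is drawn from the order. The fragment lengths of IgG and ChIP lists also differ, and their part in these ratios was not tested.

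By fold enrichment the highest SMC1 and CTCF peaks at recurrent regions lay outside the pericentromeres. By relative pileup they did not, since chr1:121484314-121485432 had 207.4 to 250.9 for SMC1 and 227.0 to 287.8 for CTCF. Both antibodies had the highest median fold enrichment at chr6:119558557-119558713, in an intron of MAN1A1, a gene of an enzyme that trims the sugar chains of glycoproteins. There the SMC1 fold enrichment was 22.9, 24.0, 22.9 and 21.9, and the CTCF fold enrichment 28.7, 28.4, 27.8 and 26.6, in wild-type, ΔWAPL, ΔSCC4 and double mutant cells, while that of IgG was 40.0, 41.0, 40.3 and 40.5. Each antibody thus gave nearly the same value in every genotype at this region. IgG, on whose peaks the regions were selected, gave the highest. For SMC1 the next were chrX:108297639-108297848, in the pseudogene CTD-2328D6.1, with 18.5 to 23.5, and chr5:71146725-71146948 with 17.3 to 22.7. For CTCF they were chr14:88237552-88237836, in an intron of a non-coding gene, with 23.5 to 29.4, and chr10:98561318-98561555 with 24.7 to 25.7.

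To ask whether the genotypes moved SMC1 at recurrent regions as they did elsewhere, relative summit pileups were compared at merged regions with a peak in both lists. In ΔWAPL over wild-type cells, the median ratio was 1.61 at all 17289 SMC1 regions and 0.877 at the 307 that touched a recurrent IgG region (0.424 to 1.78). SMC1 was at least 1.5-fold higher at 4 of these 307, where 56.8% of all regions were, and at least 1.5-fold lower at 25, where 1.09% of all were. In ΔSCC4 cells the medians were 0.817 at all 11121 regions and 0.905 at 314. At least 1.5-fold higher were 1 of the 314, against 1.89% of all, and at least 1.5-fold lower 13, against 24.4% of all. In double mutant cells the medians were 1.28 at all 16579 regions and 0.876 at 296. Here 2 of 296 were at least 1.5-fold higher, against 29.7% of all, and 19 lower, against 2.43% of all. With fold enrichment in place of relative pileup the contrast was smaller, with medians of 1.25 at all regions and 0.983 at recurrent ones in ΔWAPL cells, and 1.09 and 0.913 in double mutant cells. By median relative pileup the SMC1 summits at recurrent regions were thus a little below wild-type in each mutant. This included the 2 genotypes without WAPL, where most other SMC1 summits were above wild-type. The SMC1 fragment length was 194 bp for the wild-type list and longer for each mutant. It was 208 bp for ΔWAPL, 199 bp for ΔSCC4 and 227 bp for the double mutant. The part of fragment length in these ratios was not tested.

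By relative pileup the median CTCF summit was also below wild-type in each mutant, at all regions and at recurrent IgG regions. In ΔWAPL cells the median ratio was 0.829 at all 39349 regions and 0.872 at 340 with a recurrent IgG region, of which 4 were at least 1.5-fold higher (4.84% of all) and 10 lower (16.3% of all). In ΔSCC4 cells the medians were 0.802 and 0.945, with 7 of 338 higher (1.06% of all) and 7 lower (22.4% of all). In double mutant cells they were 0.921 and 0.938, with 5 of 332 higher (6.36% of all) and 4 lower (7.14% of all). With fold enrichment in place of relative pileup the CTCF medians lay nearer to wild-type. For ΔWAPL, ΔSCC4 and double mutant cells they were 0.956, 0.892 and 0.949 at all regions, and 0.982, 0.984 and 0.970 at recurrent ones. A peak in all 4 genotypes was found at 273 of the 379 SMC1 regions that touched a recurrent IgG region (72.0%), where 28.2% of all SMC1 regions had one, and at 316 of 415 CTCF regions (76.1%), where 64.2% of all had one. The mutant libraries were each compared with the same wild-type library.

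**Figure D4:**
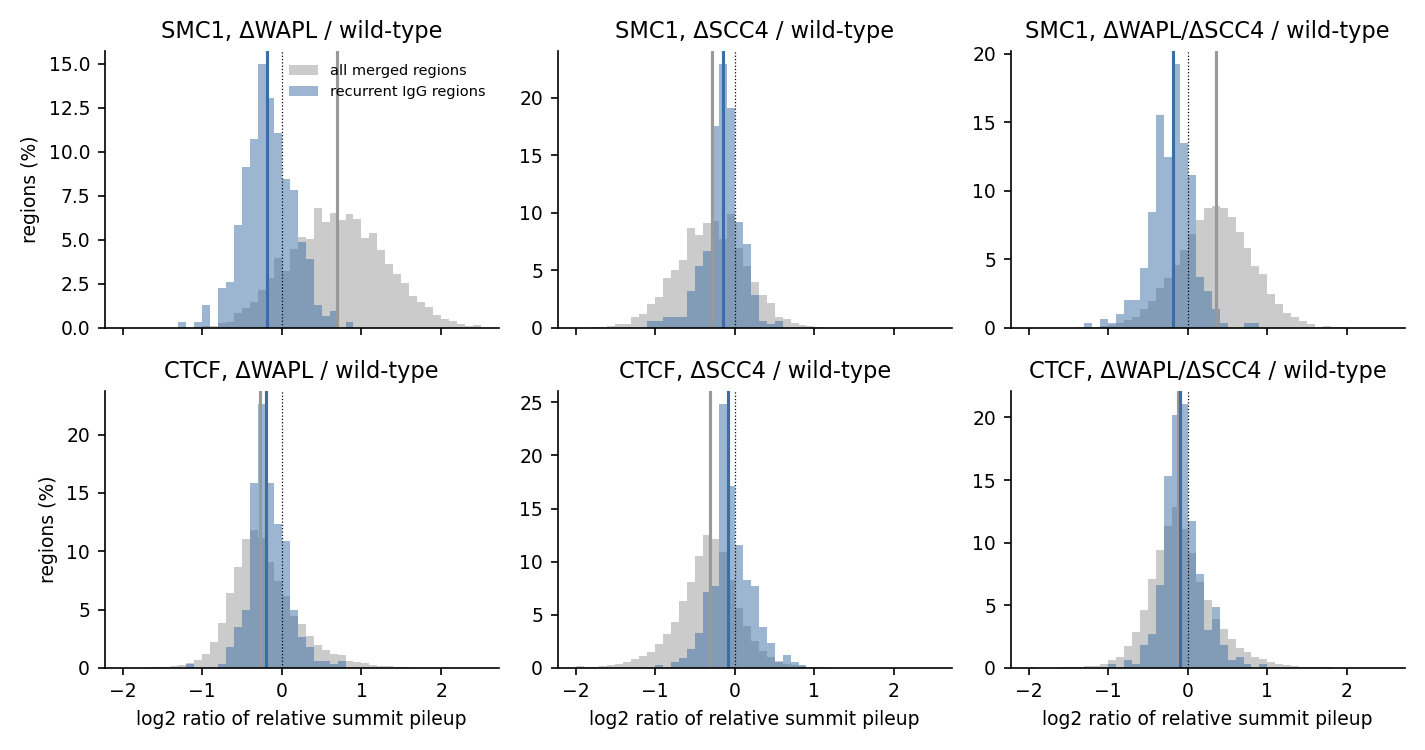
Log2 ratio of relative summit pileup to wild-type for SMC1 (top) and CTCF (bottom) in the 3 mutant genotypes, as shares (%) of all merged regions with a peak in both lists (grey) and of those that touch a recurrent IgG region (blue). Solid lines are medians and the dotted line marks no change, and values beyond the axis are drawn at its ends. For SMC1 in ΔWAPL cells the medians are ratios of 1.61 for all regions and 0.877 for recurrent IgG regions.

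The CTCF peaks at recurrent regions rarely held the CTCF motif. A motif of 19 bases was learned from the 1000 strongest wild-type CTCF summits on odd chromosomes away from IgG regions, and a summit matched when the motif was found within 50 bp on either strand with a score that 5% of places 1 kb from those summits reach. At recurrent regions 10 of 363 wild-type CTCF summits matched (2.75%, 1.503 to 5.00). Away from IgG regions, on even chromosomes, X and Y, 16096 of 21180 did (76.0%, 75.4 to 76.6), and 1 kb from those the share was 2.87% (2.65 to 3.10). In ΔWAPL, ΔSCC4 and double mutant cells the shares were 2.42%, 3.49% and 3.07% at recurrent regions and 76.4%, 78.4% and 74.2% away from them. The share at recurrent regions was therefore within the counting error of that 1 kb away. In the wild-type list the CTCF peaks at recurrent regions had a lower median fold enrichment than the others, 6.24 against 12.2. By relative pileup both medians were 34.1. Summits of like fold enrichment were not compared, so that the part of peak strength in the motif shares was not tested. A match is a description of the letters and not a measured binding site.

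**Figure D5:**
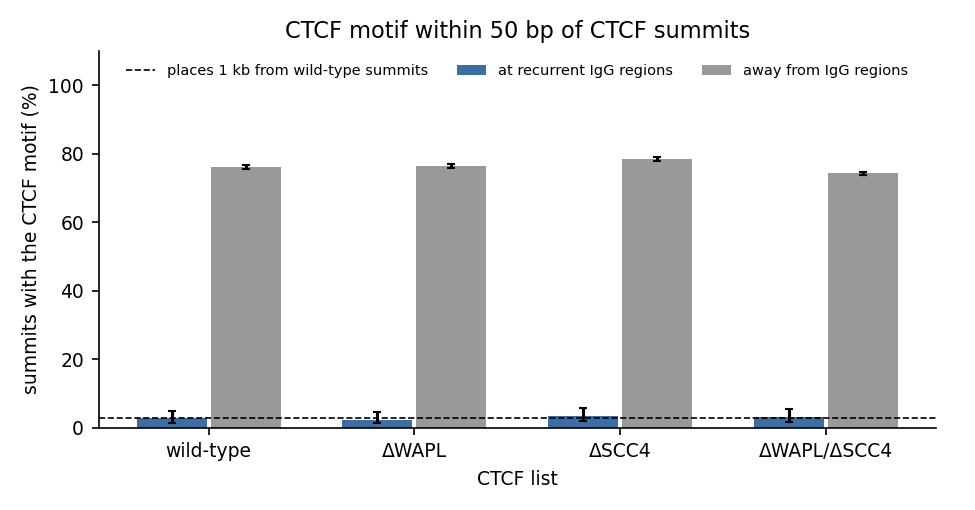
Share of CTCF summits (%) with the learned CTCF motif within 50 bp, for summits at recurrent IgG regions (blue) and away from IgG regions (grey) in each CTCF list, with 95% Wilson intervals. The dashed line is the share 1 kb from wild-type summits, 2.87%. Blue bars lie between 2.42% and 3.49% and grey bars between 74.2% and 78.4%.

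By region, 10 of the 409 nuclear recurrent regions with a wild-type CTCF peak had the motif at their strongest summit, 4 of them pericentromeric (40.0%), against 302 of the 399 without it (75.7%). The median CTCF fold enrichment was 6.31 with and 6.27 without the motif. The share of summits with the motif was within the counting error of that 1 kb away. This split of 10 regions is therefore a description and cannot be read as a difference. The strongest of the 10 was the chromosome 14 region named above, with a wild-type CTCF fold enrichment of 29.4. Its summit window, chr14:88237627-88237727, is shown with the motif in capitals.
CTCF summit: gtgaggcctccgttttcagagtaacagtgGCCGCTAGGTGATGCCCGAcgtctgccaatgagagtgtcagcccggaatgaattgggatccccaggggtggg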

How the data were processed

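Chromatin immunoprecipitation libraries of 4 genotypes and 3 antibodies were sequenced by the study as single-end reads of 65 bases and aligned to hg19 with Bowtie2. The authors called peaks with MACS2 2.1.1 and deposited 1 list per library, giving for each peak a summit position, a fold enrichment (ratio of summit pileup to local background), −log10 p and q values and a score. The deposited fold enrichment, −log10 values and summits were used, and the score was not. The calling threshold was not given in the sources used here. The study's methods name IgG as the control, whereas the recovered local backgrounds were whole reads in 10 kb of each library itself at 100% of the peaks tested in every list. The deposited SMC1 lists also differ in size from the SMC1 peak numbers that the study reports. All overlaps above are therefore those of the deposited lists.

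Summit pileups were recovered from these values, to a tolerance of 0.002, and tested on simulated data. Members and lists of genes and motifs were chosen with earlier results of these data known. Named regions were the 4 found in all 4 IgG lists with the highest median relative pileup in each place class, the 3 widest, the 3 with the highest SMC1 and CTCF fold enrichment, and the 2 most significant on each side of the selection. Genes came from the GENCODE annotation lifted to GRCh37, and sequence from that genome. BLAST 2.17.0, samtools 1.23.1, numpy 2.4.6, pandas 2.3.3 and scipy 1.17.1 were used. Alternatives changed thresholds, overlaps, depth by seeded thinning, and left out each IgG list. The sequence of 1 region is not reported here.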

Additional observations from a re-analysis of the deposited data

How the results depend on the processing

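No paired analysis was possible because each genotype and antibody had 1 library. Leaving out each IgG list in turn gave 449 to 511 recurrent regions, of which 73.3% to 73.7% were pericentromeric, 87.3% to 91.1% had an SMC1 peak and 91.8% to 93.8% a CTCF peak of any genotype. Of 78 alternative values, 60 stayed within the counting error or limits of the value reported. Within 1 Mb of a gap the pericentromeric share was 64.8%. With words of 36 bases 22.4% were multicopy, and with at least 10 copies 0. The share with an SMC1 peak was 75.3% at −log10 q of at least 10 and 80.5% with summits within 250 bp, and for CTCF 75.0% and 85.5%. With fold enrichment in place of relative pileup, the median ratios to wild-type in ΔWAPL, ΔSCC4 and double mutant cells were 0.983, 0.981 and 0.913 for SMC1 and 0.982, 0.984 and 0.970 for CTCF, and at all SMC1 regions 1.25, 0.883 and 1.09. A stricter motif score, chosen after seeing the data, gave 0.826% at recurrent regions and 61.7% away from IgG regions. The cause of these differences was not tested. At a stricter −log10 q of 10 for IgG there were 417 recurrent regions, and thinning the IgG libraries to the depth of the shallowest left 464.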
